A study of Mus musculus with 6 samples.

Results

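The machinery by which salivary acini move water and salt was followed through 10 genes in mouse submandibular salivary gland organoids (mSGOs). They were listed by name for their role: the water channels *Aqp3* and *Aqp5*, the muscarinic receptors *Chrm1* and *Chrm3*, the calcium release channel *Itpr3*, the chloride importer *Slc12a2*, the potassium channel *Kcnn4* and the chloride transport proteins *Ano1*, *Clcn3* and *Cftr*. All 10 were found among the 47643 gene IDs of the count files, 9 had a count, and those 9 were among the 15792 genes tested. The organoids were grown from glands of female C57BL/6 mice aged 8 to 12 weeks, as cells first kept as spheres, dissociated and then set in Matrigel with WRY medium, which carries EGF, FGF2, insulin, dexamethasone, the ROCK inhibitor Y27632 and conditioned media holding R-spondin1 and Wnt3a. No library was irradiated or treated. One group was collected on day 5 and the other on day 7, with 3 libraries each, and by the labels each of the 3 mice gave a library to both days. The listed medium holds no muscarinic agonist, the signal that starts the calcium response of an acinus described next.

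In a salivary acinus, acetylcholine binds muscarinic receptors, phospholipase C makes inositol trisphosphate (IP3), and IP3 receptors release calcium from the endoplasmic reticulum. Calcium opens *Ano1*, the apical chloride channel, and *Kcnn4*, a potassium channel that keeps the cell negative so that chloride can leave. *Slc12a2* (NKCC1) loads chloride across the basolateral membrane on the sodium gradient made by the sodium pump, and water follows through *Aqp5*. *Aqp3* is a basolateral water and glycerol channel of many epithelia, and *Cftr* is a cAMP-regulated chloride channel found mainly in salivary ducts.

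Values are counts per 1000000 (CPM): reads in a gene divided by the TMM-scaled library size, with reads taken from the 3′ end of transcripts and not divided by length. Libraries held 1918198 to 2837397 counts in genes, and the limit set by a count of 0 in 1 library, 3 counts, came to between 1.04 and 1.51 CPM. These floors, and the counting intervals given later, cover counting error only. The threshold for a call was an edgeR adjusted p below 0.05 together with a log2 fold change of more than 0.6 in either direction. All log2 fold changes are day 7 against day 5, and errors of CPM are SD over 3 libraries.

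The label of acinar machinery was first set beside markers of acinar cells. Of 13 acinar markers, 12 were found in the files and 5 of them, *Bpifa2*, *Lpo*, *Dcpp1*, *Dcpp2* and *Prol1*, had no count in any library. *Bhlha15*, a transcription factor of secretory acini, had 1 count at each day. The 12 genes together held 23 counts at day 5 and 58 at day 7, and their summed level lay between 2.01 and 4.12 CPM at day 5 and was 1.92, 9.37 and 12.7 CPM for mice 1, 2 and 3 at day 7. *Pip* held most of the later counts (0, 2 and 1 at day 5; 1, 24 and 21 at day 7) and was past the threshold, higher (log2 fold change 3.73, edgeR adjusted p = 0.0143), the 1 call in this list. *Amy1* came next with 21 counts in all. The acinar markers other than *Pip* were at or near 0 on both days, as *Pip* was on day 5, and the 10 genes are called here fluid secretion genes.

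Markers of other epithelial cells were abundant. The basal list (4 of 4 with counts, led by *Krt14* and *Krt5*) summed to between 12100 and 16000 CPM at day 5 and between 9030 and 13600 at day 7, with 1 gene past the threshold, higher. The duct list (7 of 7, led by *Krt7* and *Epcam*) summed to 1590 to 1930 CPM at day 5 and to 1980, 2550 and 2980 for mice 1, 2 and 3 at day 7, with 3 genes higher and 1 lower. *Epcam*, which the study used to mark epithelial cells, had a mean of 484 CPM at day 5 and 505 at day 7. The squamous list (8 of 8) was led by *Krt6a* and *Krt13*. This list summed to 3160 to 4750 CPM at day 5 and to 5430 to 7720 at day 7, with 5 of 8 genes higher and none lower by edgeR. Most of the sum was *Krt6a*, with 20668 of 26887 counts at day 5 and 32713 of 51546 at day 7. The study counted *Krt6a* among progenitor-associated markers, for basal duct and stem/progenitor I cells, so the sum is not specific to squamous cells. *Krt6a* was not one of the 5 higher genes. As a baseline for the calls in these lists, edgeR called 7.22% of its 15792 genes higher and 4.82% lower. Low lists were myoepithelial (1.51 to 2.16 CPM at day 5 and 7.34 to 11.8 at day 7, led by *Acta2*, which was higher, and *Mylk*, with *Oxtr* at 0), nerve (8.65 to 10.0 and 0.694 to 2.68, led by *Tubb3*, which was lower, with *Elavl4* and *Sox10* at 0) and macrophage (0.360 to 1.65 and 3.45 to 6.85, nearly all *Cd68*, which was higher, with *Adgre1*, *Csf1r*, *Lyz2* and *C1qa* at 0). Endothelial markers, led by *Vwf* and *Emcn*, held 10 counts in all, with *Cdh5* and *Tek* at 0, and fibroblast markers, led by *Col1a1* and *Dcn*, held 15, with *Col1a2*, *Col3a1* and *Lum* at 0. The 5 markers of ionocyte-like duct cells (*Ascl3*, *Foxi1*, *Foxi2*, *Atp6v1g3* and *Slc26a4*) were at 0 in every library. Closing entries that name no gene held 13.7% to 14.4% of the reads in the count files at day 5 and 9.12% to 9.74% at day 7. The part of these measures in the results below was not tested.

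The question for the fluid secretion genes was which of them differed between 5-day and 7-day mSGOs. *Ano1* and *Kcnn4*, which encode the calcium-activated channels of this machinery, fell, to fitted levels of 0.478 and 0.512 of day 5, and no member rose past the threshold. Of the 9 genes tested, 2 (22.2%) were past the threshold, both lower, beside 12.0% of all genes tested and 4.82% for falls alone. At an unadjusted p under 0.05 there were 3 higher and 2 lower, beside 25.8% of all genes (14.4% higher and 11.4% lower). DESeq2 also called 0 higher and 2 lower, beside 9.99% of all genes (5.94% higher and 4.05% lower). With the mouse as a block in the edgeR fit 4 were past the threshold, 2 higher and 2 lower, beside 14.8% of all genes (8.37% higher and 6.45% lower). The 3 values of one day lay outside those of the other in 6 of 9 genes, 4 higher and 2 lower. Over all genes tested this held for 30.9% (15.4% higher and 15.5% lower). *Cftr* was among the 4 higher, though its highest count at day 5 and its lowest at day 7 were both 2. Only scaling set these libraries apart, at 0.721 and 0.767 CPM, both below the floor of 1 library. The median log2 fold change was 0.37 over the 9 genes and -0.0073 over all genes tested.

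**Figure D1:**
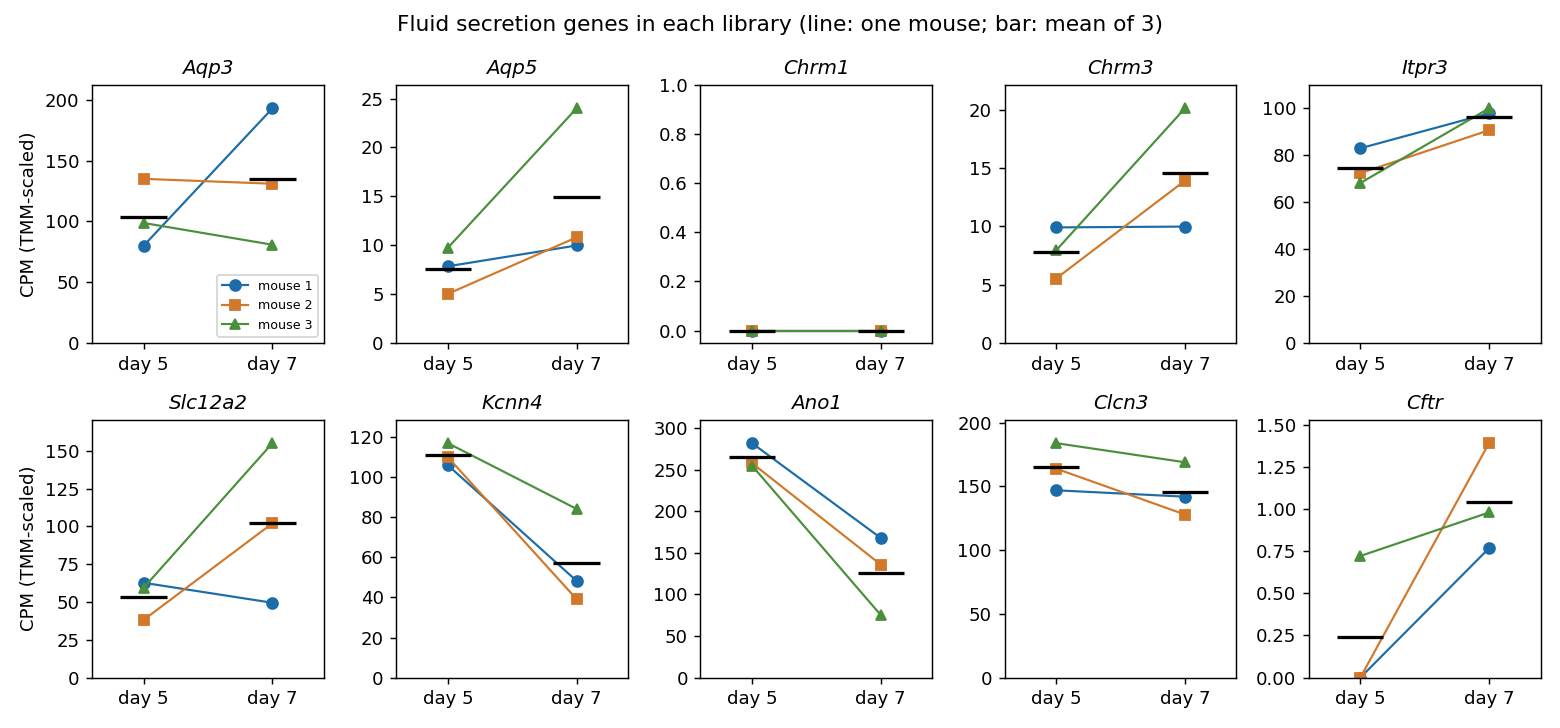
CPM of the 10 fluid secretion genes on a linear axis, with 1 panel per gene, 1 line per mouse from day 5 to day 7, and a black bar for the mean of 3 libraries. *Ano1* and *Kcnn4* were lower at day 7 in all 3 mice, *Slc12a2* and *Aqp3* went opposite ways in mouse 1 and the other mice, and *Chrm1* was at 0 throughout.

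*Ano1* (ENSMUSG00000031075, TMEM16A, GRCm39 chromosome 7, 144142278 to 144305711, minus strand) had 282, 258 and 255 CPM at day 5 and 168, 136 and 75.4 CPM at day 7 in mice 1, 2 and 3. The days did not overlap, and the lowest value was that of mouse 3 at day 7. The mean went from 265 ± 14.6 to 126 ± 47.0 CPM (SD, n = 3), and the log2 fold change was -1.06 (SE 0.24, edgeR adjusted p = 0.00597). Within mice, the day 7 level was 0.596, 0.526 and 0.296 of that at day 5. In a bulk library, fewer cells with the transcript and less of it per cell cannot be told apart. The fall stayed past the threshold without any 1 library (-1.32 to -0.80). It did not pass a test against a minimum change of 0.6 (glmTreat, edgeR adjusted p = 0.129, between 1.55e-05 and 0.129 over the alternatives).

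*Kcnn4* (ENSMUSG00000054342, the intermediate-conductance potassium channel KCa3.1, chromosome 7, 24066915 to 24086115, plus strand) had 106, 110 and 117 CPM at day 5 and 48.3, 39.2 and 84.2 CPM at day 7. Here mouse 3 was the highest at day 7, where for *Ano1* it was the lowest. The mean went from 111 ± 6.00 to 57.3 ± 23.8 CPM (SD, n = 3), and the log2 fold change was -0.97 (SE 0.24, edgeR adjusted p = 0.0136). The day 7 level was 0.458, 0.357 and 0.717 of that at day 5 in mice 1, 2 and 3. This call held in 2 of the 6 fits that leave out 1 library, where the log2 fold change ranged from -1.35 to -0.75. *Kcnn4* missed the threshold when day 5 replicate 1, 2 or 3 was left out (-1.01, -0.97 and -0.92) or day 7 replicate 2 (-0.75), with edgeR adjusted p from 0.0525 to 0.0902 in these fits (range over all alternatives 4.88e-05 to 0.235). Without these libraries in turn, all genes past the threshold numbered 892, 797, 890 and 1045, against 1901 with all 6 libraries. With the mouse as a block both falls remained past the threshold, at -1.13 for *Ano1* and -1.02 for *Kcnn4*.

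The sequences before the start of both falling genes are shown beside those of the water channels *Aqp3* and *Aqp5*, neither of which was past the threshold. Each runs from 250 bases before to 50 bases after the start of the canonical transcript in GENCODE vM39, read 5′ to 3′ on the strand of the gene from GRCm39. Capitals mark the motifs searched: the TATA box TATAAA, the GC box GGGCGG and the AP-1 site TGANTCA, each on both strands, with no overlap between motifs in these windows.
Ano1, chr7:144292302-144292601, minus strand: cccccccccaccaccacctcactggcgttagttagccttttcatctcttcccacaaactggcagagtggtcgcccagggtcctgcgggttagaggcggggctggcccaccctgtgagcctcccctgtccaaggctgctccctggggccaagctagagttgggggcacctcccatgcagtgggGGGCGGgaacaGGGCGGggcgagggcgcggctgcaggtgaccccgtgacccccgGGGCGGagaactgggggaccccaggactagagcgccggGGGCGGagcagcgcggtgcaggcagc
Kcnn4, chr7:24069438-24069737, plus strand: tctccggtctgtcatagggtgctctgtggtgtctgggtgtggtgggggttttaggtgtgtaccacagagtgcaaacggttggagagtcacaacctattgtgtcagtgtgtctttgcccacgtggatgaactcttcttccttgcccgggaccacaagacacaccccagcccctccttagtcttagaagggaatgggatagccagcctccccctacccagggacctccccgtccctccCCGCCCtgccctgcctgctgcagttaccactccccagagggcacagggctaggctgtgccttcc
Aqp3, chr4:41098134-41098433, minus strand: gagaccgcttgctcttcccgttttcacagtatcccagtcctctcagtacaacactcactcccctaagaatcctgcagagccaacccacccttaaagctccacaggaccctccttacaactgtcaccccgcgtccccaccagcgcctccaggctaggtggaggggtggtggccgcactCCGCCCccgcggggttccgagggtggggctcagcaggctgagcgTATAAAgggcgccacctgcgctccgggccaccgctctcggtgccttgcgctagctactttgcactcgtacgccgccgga
Aqp5, chr15:99488282-99488581, plus strand: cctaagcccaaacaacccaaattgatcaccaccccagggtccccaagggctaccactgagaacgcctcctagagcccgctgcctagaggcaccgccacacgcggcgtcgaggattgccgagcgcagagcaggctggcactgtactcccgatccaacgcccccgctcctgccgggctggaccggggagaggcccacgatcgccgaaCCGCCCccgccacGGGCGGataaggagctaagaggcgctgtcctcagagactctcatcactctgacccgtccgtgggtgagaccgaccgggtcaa

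The window of *Ano1* held 4 GC boxes, that of *Aqp5* 2, and those of *Kcnn4* and *Aqp3* 1 each. *Aqp3* was the 1 member of 9 with a TATA box, which began 29 bases before the start. No window of the 9 tested members held an AP-1 site. Of 12966 protein-coding promoters of genes tested, 57.9% held a GC box, 8.51% a TATA box and 5.84% an AP-1 site. The windows of *Ano1*, *Aqp5* and *Aqp3* were 70.7%, 66.0% and 64.0% G and C, above the median of 58.0% over all of these promoters, and that of *Kcnn4* was 59.7%. The annotated genes *Ano1* and *Kcnn4* begin upstream of these starts, and counts from 3′ ends do not show which start was used.

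Of the receptors that begin the response, 1 was detected. *Chrm1* (ENSMUSG00000032773, the M1 receptor, chromosome 19, 8640962 to 8662278) had 0 counts in all 6 libraries, which allows up to 0.417 CPM over the 3 libraries of day 5 and 0.398 CPM over those of day 7. *Chrm3* (ENSMUSG00000046159, the M3 receptor, the main one on salivary acini, chromosome 13, 9925522 to 10410883) had 24, 11 and 22 counts at day 5 and 26, 40 and 41 at day 7. In CPM these were 9.90, 5.52 and 7.93 against 9.97, 13.9 and 20.1, so the days did not overlap, but mouse 1 hardly moved. The log2 fold change was 0.88 (SE 0.34, edgeR adjusted p = 0.106) and did not pass the threshold. It passed without day 7 replicate 1 (1.09, edgeR adjusted p = 0.0331, between 0.0331 and 0.474 over the alternatives), and with the mouse as a block the adjusted p was 0.0544. The level was 1.01, 2.51 and 2.53 times that of day 5 in mice 1, 2 and 3.

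*Itpr3* (ENSMUSG00000042644, the type 3 IP3 receptor, concentrated at the apical pole of acinar cells, chromosome 17, 27275971 to 27343866) was the most even member at day 7. It had 82.9, 72.3 and 68.1 CPM at day 5 and 97.8, 90.6 and 99.9 CPM at day 7. The days did not overlap and each mouse was higher at day 7, yet the difference was small, with a log2 change of 0.37 (SE 0.19, edgeR adjusted p = 0.235, 95% interval -0.03 to 0.77). It was not past the threshold under any alternative tried.

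*Slc12a2* (ENSMUSG00000024597, NKCC1, chromosome 18, 58011164 to 58080812) had 62.7, 38.2 and 59.4 CPM at day 5 and 49.5, 102 and 155 CPM at day 7. Mouse 1 was lower at day 7, at 0.789 of its day 5 level, while mice 2 and 3 stood at 2.67 and 2.60 times theirs, and the days overlapped. Over 3 libraries the log2 fold change of 0.92 (SE 0.31) fell short of the threshold (edgeR adjusted p = 0.0586). It passed when mice were blocked (0.83, edgeR adjusted p = 0.00700), with no filter on low counts (0.92) and without day 7 replicate 1 (1.25), and without day 7 replicate 3 it was 0.49. Its edgeR adjusted p over all alternatives ranged from 7.56e-04 to 0.386.

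Neither water channel was past the threshold. *Aqp5* (ENSMUSG00000044217, chromosome 15, 99488532 to 99492710) rested on few reads, with 19, 10 and 27 counts at day 5 and 26, 31 and 49 at day 7. Its levels were 7.84, 5.02 and 9.73 CPM against 9.97, 10.8 and 24.0 CPM, which did not overlap although mouse 3 at day 5 and mouse 1 at day 7 were close. The log2 fold change of 0.93 (SE 0.38) had an edgeR adjusted p of 0.123, not past the threshold. It passed in the fit blocked by mouse (0.93, edgeR adjusted p = 0.0412, between 0.0412 and 0.463 over the alternatives) and without day 7 replicate 1 (1.14), and was 0.43 without day 7 replicate 3. *Aqp3* (ENSMUSG00000028435, chromosome 4, 41092722 to 41098183) had 80.0, 135 and 98.7 CPM at day 5 and 193, 131 and 80.8 CPM at day 7, with wide overlap. Its level changed by 2.41, 0.970 and 0.818 times in mice 1, 2 and 3. The log2 fold change was 0.37 (SE 0.27, edgeR adjusted p = 0.389), and single libraries moved it from 0.03 without day 7 replicate 1 to 0.63 without day 7 replicate 3, where it passed the threshold (edgeR adjusted p = 0.0414, between 0.0414 and 1 over the alternatives).

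The other chloride transport genes were not past the threshold. *Clcn3* (ENSMUSG00000004319, a chloride-proton exchanger of endosomes, chromosome 8, 61362958 to 61446785) had 147, 164 and 184 CPM at day 5 and 142, 128 and 169 CPM at day 7. It was slightly lower in each mouse, but the days overlapped and the log2 fold change was -0.18 (SE 0.19, 95% interval -0.58 to 0.22, edgeR adjusted p = 0.606). The study used *Clcn3* together with *Chrm3* and *Alcam* to name pro-acinar cells, in organoids of a later day than those compared here. *Cftr* (ENSMUSG00000041301, chromosome 6, 18170686 to 18322767) was close to the detection limit, with 0, 0 and 2 counts at day 5 and 2, 4 and 2 at day 7. The 2 counts of day 5 and 8 of day 7 give a ratio of 3.82 per TMM-scaled depth, with a 95% counting interval from 0.762 to 36.9, so a difference was not detectable at this depth (edgeR adjusted p = 0.320).

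**Figure D2:**
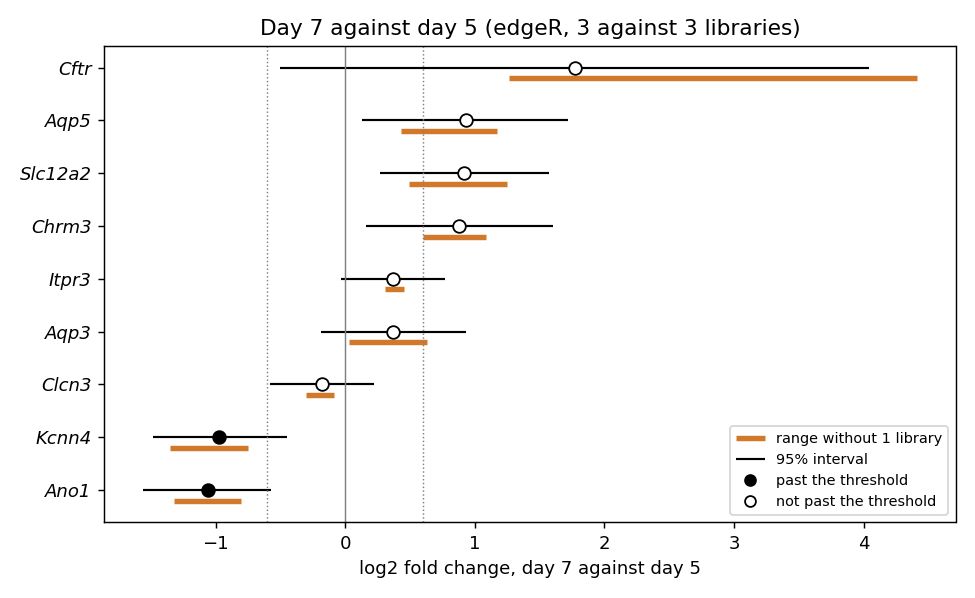
Log2 fold change of the 9 genes tested, day 7 against day 5, with 95% intervals in black and the range over the 6 fits that each leave out 1 library in orange; dotted lines mark 0.6 in either direction. The filled points, *Ano1* at -1.06 and *Kcnn4* at -0.97, were past the threshold, and *Cftr* at 1.77 had the widest interval.

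The order of the members by CPM changed between the days. At day 5 it ran *Ano1* (265), *Clcn3* (165), *Kcnn4* (111), *Aqp3* (104), *Itpr3* (74.4), *Slc12a2* (53.4), *Chrm3* (7.78), *Aqp5* (7.53) and *Cftr* (0.240), with *Chrm1* at 0. Neighbours whose libraries overlapped at day 5 were *Kcnn4* and *Aqp3*, *Aqp3* and *Itpr3*, *Chrm3* and *Aqp5*, and *Cftr* and *Chrm1*. At day 7 *Clcn3* was first (146), followed by *Aqp3* (135), *Ano1* (126), *Slc12a2* (102) and *Itpr3* (96.1), and each of these overlapped the next. *Kcnn4* (57.3) came next and did not overlap *Itpr3*, but its highest library, at 84.2 CPM, lay above the lowest of *Aqp3*, *Ano1* and *Slc12a2*. After it came *Aqp5* (14.9) and *Chrm3* (14.6), which overlapped, and *Cftr* (1.04). *Ano1* lay at the 96.8th percentile of all genes tested at day 5 and at the 91.5th at day 7, and *Aqp5* at the 45.4th and the 55.4th. Reads per transcript from a 3′ kit can also differ between genes with the site of priming, so this is an order of counted 3′ ends.

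The spread between mice was larger at day 7 for 7 of the 9 members with counts. The coefficient of variation went from 5.51% to 37.2% for *Ano1*, from 5.40% to 41.5% for *Kcnn4*, from 24.9% to 51.6% for *Slc12a2* and from 26.5% to 41.6% for *Aqp3*. For *Itpr3* it went the other way, from 10.3% to 5.06%, and for *Cftr*, on very few counts, from 173% to 30.2%. No test of these spreads was made, and they were not set beside the spread of all genes.

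Shares within gene families were compared next, since they do not depend on how libraries are scaled. For each member the counts of its family were summed, and its share was compared between the days by a two-sided exact permutation test, which with 3 libraries a day cannot go below 0.1, adjusted over the 7 shares tested. A share in 1 library had a 95% Wilson interval with a half-width of at most 8.25 percentage points in these 7.

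Among aquaporins, *Aqp3* held 78.6% ± 7.09 of the reads on day 5 and 55.3% ± 14.8 on day 7 (SD, n = 3), lower in 3 of 3 mice (exact permutation p = 0.1, adjusted 0.14). *Aqp4*, a water channel best known from astrocyte end feet and not among the 10, was higher. *Aqp4* (ENSMUSG00000024411) had 39, 25 and 61 counts at day 5 and 218, 194 and 198 at day 7, or 16.1, 12.6 and 22.0 CPM against 83.6, 67.3 and 96.9. The days were far apart, with a log2 change of 2.27 (SE 0.25, edgeR adjusted p = 9.93e-06), and it was past the threshold under all 15 alternatives tried (2.11 to 2.52 without 1 library). *Aqp5* held 5.96% ± 2.36 and 6.62% ± 4.21 of the family (exact permutation p = 0.8). *Aqp1*, the water channel of vessels and red cells, had no count.

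*Chrm3* held all counts of the 5 muscarinic receptors in every library. Among IP3 receptors *Itpr3* held 46.1%, 40.9% and 41.6% at day 5 and 39.9%, 38.3% and 31.7% at day 7, lower in 3 of 3 mice (exact permutation p = 0.1, adjusted 0.14). *Itpr2* had more counts than *Itpr3*, 645 against 534 at day 5 and 1106 against 720 at day 7. It was past the threshold on its own (log2 fold change 0.73, SE 0.20, edgeR adjusted p = 0.0238).

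*Ano1* held 75.1%, 73.6% and 70.0% of anoctamin counts at day 5 and 63.4%, 61.1% and 37.9% at day 7 (exact permutation p = 0.1, adjusted 0.14). Named after their values were seen, *Ano10* rose (0.94, edgeR adjusted p = 0.0351) and *Ano8* fell (-1.40, edgeR adjusted p = 0.0289), while *Ano3*, *Ano6* and *Ano9* were not past the threshold. *Kcnn4* made up 99.3% ± 0.581 of calcium-activated potassium channel reads on day 5 and 96.2% ± 1.36 on day 7 (SD, exact permutation p = 0.1, adjusted 0.14). The others of that family had few reads, and *Kcnn1*, named after its values were seen, had 1 count at day 5 and 15 at day 7 (edgeR adjusted p = 0.0467).

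*Slc12a2* held 65.8%, 56.3% and 63.2% of cation chloride cotransporter counts at day 5 and 65.2%, 78.6% and 90.8% at day 7, with mouse 1 overlapping day 5 (exact permutation p = 0.2, adjusted 0.233). *Clcn3* took 54.9% ± 1.99 of ClC counts on day 5 and 59.3% ± 2.52 on day 7 (SD), with exact permutation p = 0.1 and 0.14 after adjustment. In mice 1, 2 and 3 its share was 53.8%, 53.6% and 57.2% at day 5 and 57.3%, 58.4% and 62.1% at day 7. The days were thus barely apart, by less than the counting error of 1 library. Its own level did not pass the threshold, as given above.

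**Figure D3:**
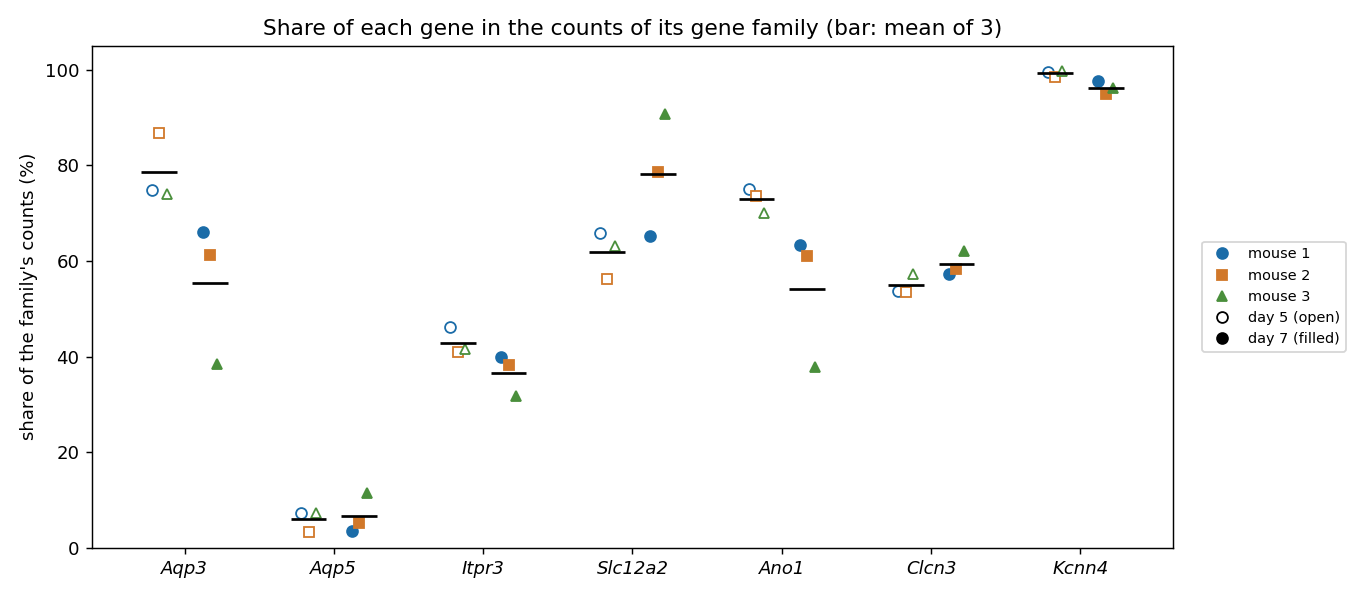
Share of each member in the summed counts of its gene family, in percent, for each library, with open symbols for day 5, filled symbols for day 7 and bars for the mean of 3. Shares of *Aqp3*, *Itpr3*, *Ano1* and *Kcnn4* were lower and that of *Clcn3* higher at day 7 without overlap. For *Clcn3* the days were barely apart, with 57.2% in mouse 3 at day 5 and 57.3% in mouse 1 at day 7. The lowest *Ano1* share was 37.9% in mouse 3.

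The other genes of fluid secretion, a list of 66 genes found in the files, were read from the same fit. The list includes 6 genes of ion absorption in ducts, of which 3 were tested and 2, *Scnn1a* and *Scnn1b*, were past the threshold. Of 56 tested in the whole list, 12 (21.4%) were past the threshold, all higher, beside 12.0% of all genes and 7.22% for rises alone. With all 6 libraries none was lower by edgeR or DESeq2, while without day 7 replicate 1 and without day 7 replicate 3 the edgeR fit called 1 lower each. At an unadjusted p under 0.05 there were 19 higher and 3 lower, beside 14.4% and 11.4% of all genes. The median log2 fold change was 0.34. Without day 5 replicate 1, 2 or 3 and without day 7 replicate 2, all genes past the threshold went from 1901 to 892, 797, 890 and 1045. The count in this list was 6, 3, 6 and 6 in those fits. It was 9 with library totals as the only scaling, where all 9 were again higher, and 9 with DESeq2 (9.99% of all genes), which did not call *Itpr1*, *Plcb3* and *Scnn1b*.

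Genes of salt loading and its control were among those past the threshold. The sodium pump subunit *Atp1b1* had 85.4, 50.7 and 67.7 CPM at day 5 and 111, 293 and 393 CPM at day 7 (log2 fold change 1.96, SE 0.33, edgeR adjusted p = 6.45e-04), so that mouse 1 was again the lowest at day 7, as for *Slc12a2*. *Slc4a4*, the electrogenic sodium bicarbonate cotransporter, had 27.2, 15.1 and 28.5 CPM at day 5 and 75.9, 76.7 and 74.4 CPM at day 7. Its log2 fold change was 1.67 (SE 0.24, edgeR adjusted p = 1.79e-04), and it was past the threshold under all 15 alternatives. *Stk39* (SPAK), a kinase that activates *Slc12a2*, rose by 0.77 on the log2 scale, while *Wnk1*, which acts upstream of it, had 296 ± 16.4 and 328 ± 35.7 CPM and was not past the threshold. The bicarbonate cotransporter with the most counts, *Slc4a7*, was also not past it (-0.05).

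Of 13 calcium store and entry genes tested, 3 (23.1%) were past the threshold, all higher, beside 7.22% of all genes for rises. Each of the 3 lost its call in some of the fits without 1 library, given below. *Stim1*, the calcium sensor of the endoplasmic reticulum, had 70.9, 72.8 and 67.0 CPM at day 5 and 133, 111 and 124 at day 7 (log2 fold change 0.80, edgeR adjusted p = 0.00833). *Itpr2* and *Itpr1* rose by 0.73 and 1.12 on the log2 scale. *Itpr1* missed the threshold with library totals (1.03). *Atp2b1*, a plasma membrane calcium pump with the most counts of the group, had a log2 fold change of 0.08. Upstream, *Plcb3*, a phospholipase C, rose by 0.73 on the log2 scale but missed the threshold with library totals (0.63), while *Gnas* was not past it (-0.23).

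Among receptors other than muscarinic ones, *Adrb1*, the beta-1 adrenergic receptor, was past the threshold on few reads, with 1, 0 and 0 counts at day 5 and 2, 19 and 14 at day 7. The ratio of 35 counts to 1 was 33.4 per TMM-scaled depth, with a 95% counting interval from 5.62 to 1360. *P2rx4*, a purinergic channel with the most counts of this group, was not past it (0.65), and the alpha-1 receptor *Adra1a* had no count. Of the epithelial sodium channel of ducts, *Scnn1a* had 9, 7 and 15 counts at day 5 and 22, 51 and 35 at day 7 (log2 fold change 1.74, SE 0.38, edgeR adjusted p = 0.00537). *Scnn1b* had no count at day 5 and 17 at day 7, which is at least 5.41-fold higher against a floor of 3 counts over the group. Among scaffold and junction genes, the claudin gene *Cldn3* rose by 1.41 on the log2 scale, and *Ezr* was not past the threshold (0.09). Most of these calls were lost in some fits without 1 library, and the losses given here are those of the 11 genes named. A lost call did not always mean a moved estimate, as *Stim1* stayed between 0.74 and 0.87 in these fits. *Slc4a4* and *Atp1b1* passed in all 6 fits that leave out 1 library, though *Atp1b1* missed the threshold with robust = TRUE. Without day 5 replicate 1 the calls of *Stim1*, *Itpr1*, *Itpr2*, *Plcb3* and *Cldn3* were lost. Without day 5 replicate 2 those 5 were lost and also *Stk39*, *Scnn1a* and *Adrb1*. Without day 5 replicate 3 the lost calls were *Stim1*, *Itpr2*, *Plcb3*, *Stk39* and *Adrb1*. Without day 7 replicate 2 they were *Itpr1*, *Plcb3*, *Cldn3*, *Adrb1* and *Scnn1b*, and without day 7 replicate 3 *Itpr1*, *Itpr2* and *Plcb3*.

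**Figure D4:**
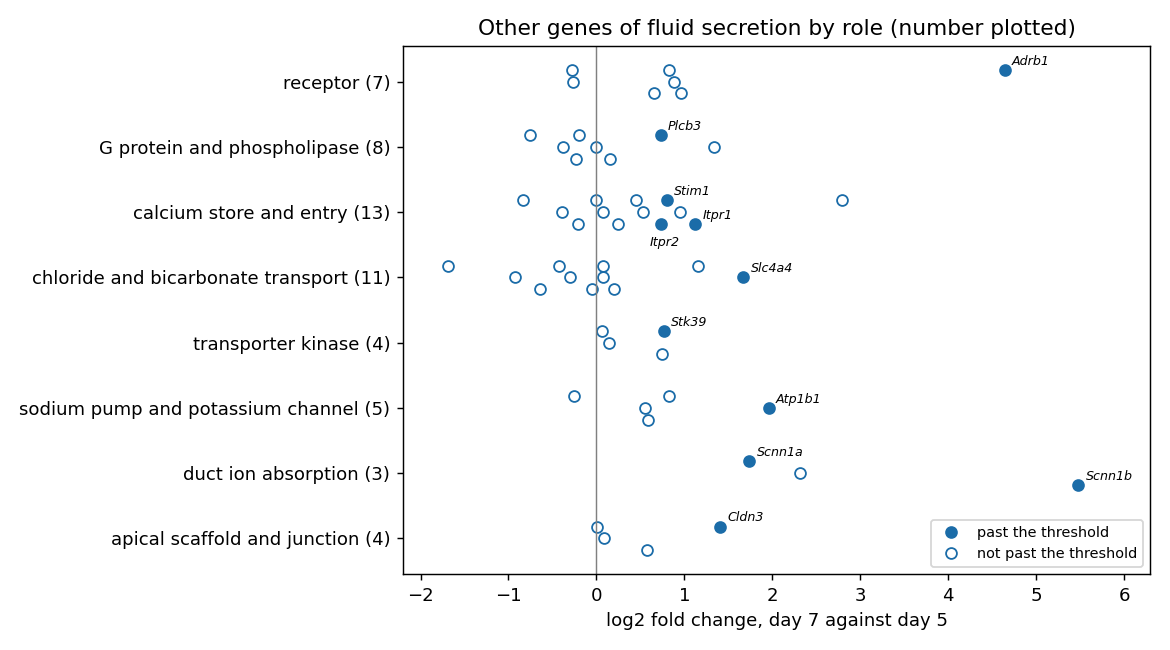
Log2 fold change of 55 other fluid secretion genes tested, day 7 against day 5, by role, duct ion absorption included, with filled and named points past the threshold. The 11 filled points were all above 0, from 0.73 for *Itpr2* and *Plcb3* to a fitted 5.48 for *Scnn1b*, which had no count at day 5.

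The genes most like 2 of the members across the 6 libraries were named by Pearson correlation of log2 CPM over genes whose mean reached 20 CPM. For *Ano1* these were *Pax9* (r = 0.999), *Ccnh* (0.999) and *Hnrnpa2b1* (0.997) of 6162 genes compared. *Pax9* had 77.1, 72.3 and 72.8 CPM at day 5 and 59.5, 51.7 and 39.2 at day 7, the same order of mice within day 7 as *Ano1*. For *Aqp5* they were *Ppm1b* (r = 0.987), *Rgs12* (0.986) and *Frg1* (0.984). Among the members, *Slc12a2* had r = 0.902 and *Ano1* r = -0.889 with *Aqp5*. These correlations are over 6 points that share libraries and mice, were picked as the highest of many, and are a description only.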

How the data were processed

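Polyadenylated RNA of organoids from 3 mice on day 5 and day 7 was sequenced with a QuantSeq 3′ kit, 1 library per mouse and day. The authors aligned reads to GRCm39 and deposited 1 whole-number read count per Ensembl gene and library. The aligner, annotation release and strand setting are not given in the sources used here. Closing entries that name no gene (9.12% to 14.4% of reads) were left out.

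Names and coordinates came from GENCODE vM39 by exact ID, found for 43465 of 47643 IDs (91.2%). *Muc19* could not be matched by name. As in the study's methods, a gene was kept if 2 or more libraries held 1 count or more, and then tested with edgeR 4.0.16 in R 4.3.3 (TMM, glmQLFit and glmQLFTest, day as the only term, Benjamini-Hochberg over all genes). SE is the absolute log2 fold change divided by the root of F. DESeq2 1.42.0 was an alternative. The code was tested on simulated data. Exact tests used scipy 1.17.1.

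The members and all lists were chosen with earlier results of these data known. All 10 members are named. Of the wider list, genes past the threshold and the gene with the most counts in each role are named, of families the paralogs with more counts than the member, and of markers the 2 with the most counts and those at 0. Of these, 1 gene of the wider list and 1 marker are not reported here, though list counts include them.

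The titles put libraries of the same number in the same mouse. After the day mean was taken off, both libraries of mice 1, 2 and 3 correlated at 0.14, -0.10 and 0.16 over 8172 genes. No libraries agreed within sampling noise (smallest chi-square per degree of freedom 1.99). Totals were 1918198 to 2837397 counts.

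The last 300 bases of each member's canonical transcript had no match of 95% identity in another gene (blastn 2.17.0). Exons of *Itpr3* overlap *Mir7677* on its own strand and *Uqcc2* on the other, those of *Clcn3* overlap *Nek1*, and those of *Aqp5*, *Chrm1*, *Ano1* and *Cftr* overlap predicted genes on the other strand, so without a stated strand setting a share of their reads is uncertain.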

Additional observations from a re-analysis of the deposited data

How the results depend on the processing

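The number of fluid secretion genes past the threshold was 2, and it was 0 with glmTreat, 4 with the mouse as a replicate block (*Slc12a2* at 0.83 and *Aqp5* at 0.93 in addition) and 1 to 5 in the fits without 1 library. The number of other fluid secretion genes was 12, and 5 with glmTreat or 3 to 17 without 1 library. All genes past the threshold numbered 1901, and 622 with glmTreat or 797 to 2576 without 1 library. The other settings tried for these 3 counts (DESeq2 size factors, library totals, upper quartile, no filter, filterByExpr, the DESeq2 test, robust = TRUE and no minimum fold change) left each within 1.5 times of its value. With library totals 950 of all genes were higher and 1008 lower, against 1140 and 761, and the median over all genes shifted to -0.0973. Beyond *Slc12a2* and *Aqp5*, the block changed the call of no other member. No member changed the sign of its log2 fold change in any fit.

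Of the family shares, that of *Aqp5* turned from 0.668 percentage points higher at day 7 to lower without day 5 replicate 2 (-0.692) and without day 7 replicate 3 (-1.72), and its range without 1 library was -1.72 to 2.27. The other 6 shares kept their direction in these fits and with the families limited to genes with at least 10 counts. The exact sign-flip permutation test within mice, a replicate block for shares, cannot go below p = 0.25. *Cftr* gave no value with filterByExpr, which removed it. At these depths *Chrm1* and *Cftr* lay at or near the limit of detection, and *Aqp5* and *Chrm3* had 56 and 57 counts at day 5 and 106 and 107 at day 7.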
